A study of Mus musculus with 32 samples.

Results

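Genes of atrial and ventricular heart muscle were followed through 32 mesothelioma tumors. The members were chosen by name: Myh6, Tnnt2, Tnni3, Nppa, Nppb, Myl4, Myl7, Sln, Actc1 and Ryr2, 10 genes of the 39676 in the gene count table. Rows were found for 9 of them, and Ryr2 is not analysed here. AB1 tumors were grown in BALB/c mice from 500000 cells and AE17 tumors in C57BL/6 mice from 1000000 cells, either intrapleurally (IPL) or subcutaneously (SC). Both lines are mouse mesothelioma cells kept in culture. Each of the 4 groups of model and site held 8 untreated female mice of 8 to 10 weeks, and tumors were taken on day 10. Each model is 1 cell line in 1 strain with 1 cell dose, so line, strain and dose cannot be told apart between AB1 and AE17. The labels name no engineered allele.

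Heart muscle contracts through the sliding of myosin thick filaments along actin thin filaments, with troponin as the calcium switch and the sarcoplasmic reticulum as the calcium store. Several parts come in chamber forms. In adult mice Myh6 encodes the main myosin heavy chain of both chambers, Myl7, Myl4, Sln and Nppa are typical of the atria, and Myl2 and Myl3 are light chains of the ventricle that slow skeletal muscle also uses together with Myh7. Tnnt2, Actc1 and Myl4 are also made by embryonic or regenerating skeletal muscle, and Sln by some adult skeletal muscles, whereas Tnni3, Myl7 and Nppa are largely restricted to the heart. Mesothelioma grows on the pleura, next to the heart, the diaphragm and the intercostal muscles. The study's methods say that lungs and surrounding tissues were taken off before RNA extraction. RNA came from whole tumors, in which fewer cells of a type and less RNA per cell cannot be told apart.

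Libraries held 15432258 to 20649645 counts, at which 3 counts, the floor used here, equal 0.139 to 0.19 CPM (counts brought to 1 library size with TMM factors). This floor covers counting error only. AB1 IPL replicate 4 (Spearman's rho 0.961 across genes with the median of the other 7 of its group), AB1 IPL replicate 2 (0.966) and AE17 IPL replicate 5 (0.978) stood furthest from their groups, and results that rest on them are given with and without them. AB1 IPL 2 had the lowest summed level of adult skeletal muscle genes among AB1 IPL tumors (131 CPM against a median of 2970) and the highest of mesothelial genes (76.1 CPM against a median of 1.14). The 4 mesothelial genes with rows, Krt19, Upk3b, Lrrn4 and Wt1, summed to medians of 1.14 CPM in AB1 IPL, 1.02 in AB1 SC, 10.7 in AE17 IPL and 2.99 in AE17 SC tumors, and none was at 0 throughout a group. All AB1 IPL libraries ran on lane 3, together with 2 of the AB1 SC libraries, and AE17 IPL 6, 7 and 8 shared lane 1 with all AE17 SC libraries, so lane and site overlap. The other AB1 SC and AE17 IPL libraries ran on lane 2. At neither site did AB1 and AE17 libraries share a lane, so lane also cannot be told apart from model.

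Reads had 50 bases, and Myh6 and Nppa share much of their sequence with another gene, where such reads cannot be assigned. Of the 6851 windows of 50 bases in Myh6 transcripts, 1381 (20.2%) also occur in Myh7, its neighbor on chromosome 14. The longest identical coding run had 245 bases and is shown because Myh6 and Myh7 are compared below. In GRCm38 it lies in exons 30 and 31 of Myh6 (chr14:54948317-54948735, minus strand, intron included) and in exons 32 and 33 of Myh7 (chr14:54974937-54975357, minus strand, intron included), and the mismatches that end it are in capitals.
Myh6: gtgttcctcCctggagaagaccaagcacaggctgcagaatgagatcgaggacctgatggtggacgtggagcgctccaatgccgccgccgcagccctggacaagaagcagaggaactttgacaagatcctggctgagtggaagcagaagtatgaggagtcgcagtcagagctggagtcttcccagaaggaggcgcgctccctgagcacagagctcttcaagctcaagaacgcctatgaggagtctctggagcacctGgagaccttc
Myh7: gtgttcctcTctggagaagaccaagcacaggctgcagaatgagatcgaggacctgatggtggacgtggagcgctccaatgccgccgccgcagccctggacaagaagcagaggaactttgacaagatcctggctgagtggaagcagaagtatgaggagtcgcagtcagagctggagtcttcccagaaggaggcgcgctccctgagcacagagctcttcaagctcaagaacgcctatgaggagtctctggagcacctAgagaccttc
For Nppa, 53.4% of 816 windows were shared with the antisense gene Gm13054, whose exons cover 61.5% of its exon length. The strand setting of the counting is not given in the sources used here, so reads of Nppa and Gm13054 cannot be told apart. No window of Actc1, Myl7, Nppb or Sln occurred in another gene. Tnni3 shared 86 exon bases (4.2%) with Dnaaf3 on the same strand.

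The 250 bases before the RefSeq transcription start are shown for 4 members (GRCm38.p6). Myl7, Actc1 and Nppa are shown because 1 tumor stood far above the other 31 for each of them, and Nppb because it neighbors Nppa and did not share this pattern. Capitals mark matches on either strand to 6 motifs, none of which overlaps another in these windows. Apart from the CArG box and the MEF2 site of muscle promoters, they were TATAAA as the core of a TATA box, CAGCTG as an E-box, AGATAA as a GATA factor motif and GGTGTGA as a T-box motif. Windows are at chr11:5898783-5899032 (Myl7, minus strand), chr2:114052876-114053125 (Actc1, minus strand), chr4:148000472-148000721 (Nppa, plus strand) and chr4:147985650-147985899 (Nppb, plus strand).
Myl7: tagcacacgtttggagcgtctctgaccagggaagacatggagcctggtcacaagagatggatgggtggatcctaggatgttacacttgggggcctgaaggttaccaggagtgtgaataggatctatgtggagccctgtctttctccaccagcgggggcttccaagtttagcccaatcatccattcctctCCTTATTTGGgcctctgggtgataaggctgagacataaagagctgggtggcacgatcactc
Actc1: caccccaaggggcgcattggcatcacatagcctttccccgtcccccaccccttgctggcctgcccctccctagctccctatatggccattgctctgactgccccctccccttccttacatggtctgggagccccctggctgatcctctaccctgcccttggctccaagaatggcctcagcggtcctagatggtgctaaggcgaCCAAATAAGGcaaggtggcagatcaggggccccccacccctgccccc
Nppa: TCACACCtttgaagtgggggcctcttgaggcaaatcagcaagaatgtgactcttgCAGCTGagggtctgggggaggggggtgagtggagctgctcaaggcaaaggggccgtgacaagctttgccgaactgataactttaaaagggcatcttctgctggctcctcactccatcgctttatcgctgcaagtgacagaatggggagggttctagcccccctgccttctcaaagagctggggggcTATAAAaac
Nppb: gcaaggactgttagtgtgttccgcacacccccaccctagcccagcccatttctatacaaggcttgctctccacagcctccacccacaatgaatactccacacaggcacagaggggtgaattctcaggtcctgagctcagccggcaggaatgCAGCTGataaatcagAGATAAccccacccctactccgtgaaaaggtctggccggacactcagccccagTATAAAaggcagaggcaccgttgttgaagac
The capitals in Myl7 and Actc1 are each 1 CArG box, the sequence bound by serum response factor. Such a box occurred in 1.47% of 32851 promoter windows of the same length. Nppa and Nppb each held 1 TATAAA (12.4% of windows) and 1 CAGCTG (13%). Nppa also held 1 GGTGTGA (3.33%) and Nppb 1 AGATAA (9.99%). The MEF2 site, present in 2.11% of windows, was in none of the 4. These matches are descriptions of letters, not binding sites. In GENCODE M21 Actc1 spans 114047282 to 114053548 and Nppb starts at 147985788. The Actc1 window thus lies inside that gene and the Nppb window overlaps its start, so the RefSeq and GENCODE starts differ there.

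The myosin motor came first. Myh6, on chromosome 14 (54941921 to 54966927, GENCODE M21 on GRCm38), encodes the alpha myosin heavy chain. It was at 0.35 CPM in the lowest, 7.33 in the median and 33.3 in the highest AB1 IPL tumor, against 0.0582, 0.175 and 0.35 CPM in AB1 SC tumors. All 8 AB1 IPL tumors were above the highest AB1 SC tumor, though the lowest IPL and highest SC tumor, with 6 counts each, were equal at the precision printed. In AE17 IPL tumors Myh6 was at 0, 1.25 and 121 CPM (lowest, median, highest), against 0, 0.352 and 0.854 CPM in AE17 SC tumors. The value of 121 CPM (2005 counts) belonged to AE17 IPL 5, and the next AE17 IPL tumor had 3.96 CPM. Myh6 was not tested within either model because too few libraries passed edgeR's filter on low counts. Without that filter, edgeR's quasi-likelihood test gave a log2 fold change of 5.5 for IPL over SC in AB1 (adjusted p = 0.00146) and 5.38 in AE17 (adjusted p = 0.098). The AE17 value was 1.76 without AE17 IPL 5 (edgeR adjusted p = 0.298).

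**Figure D1:**
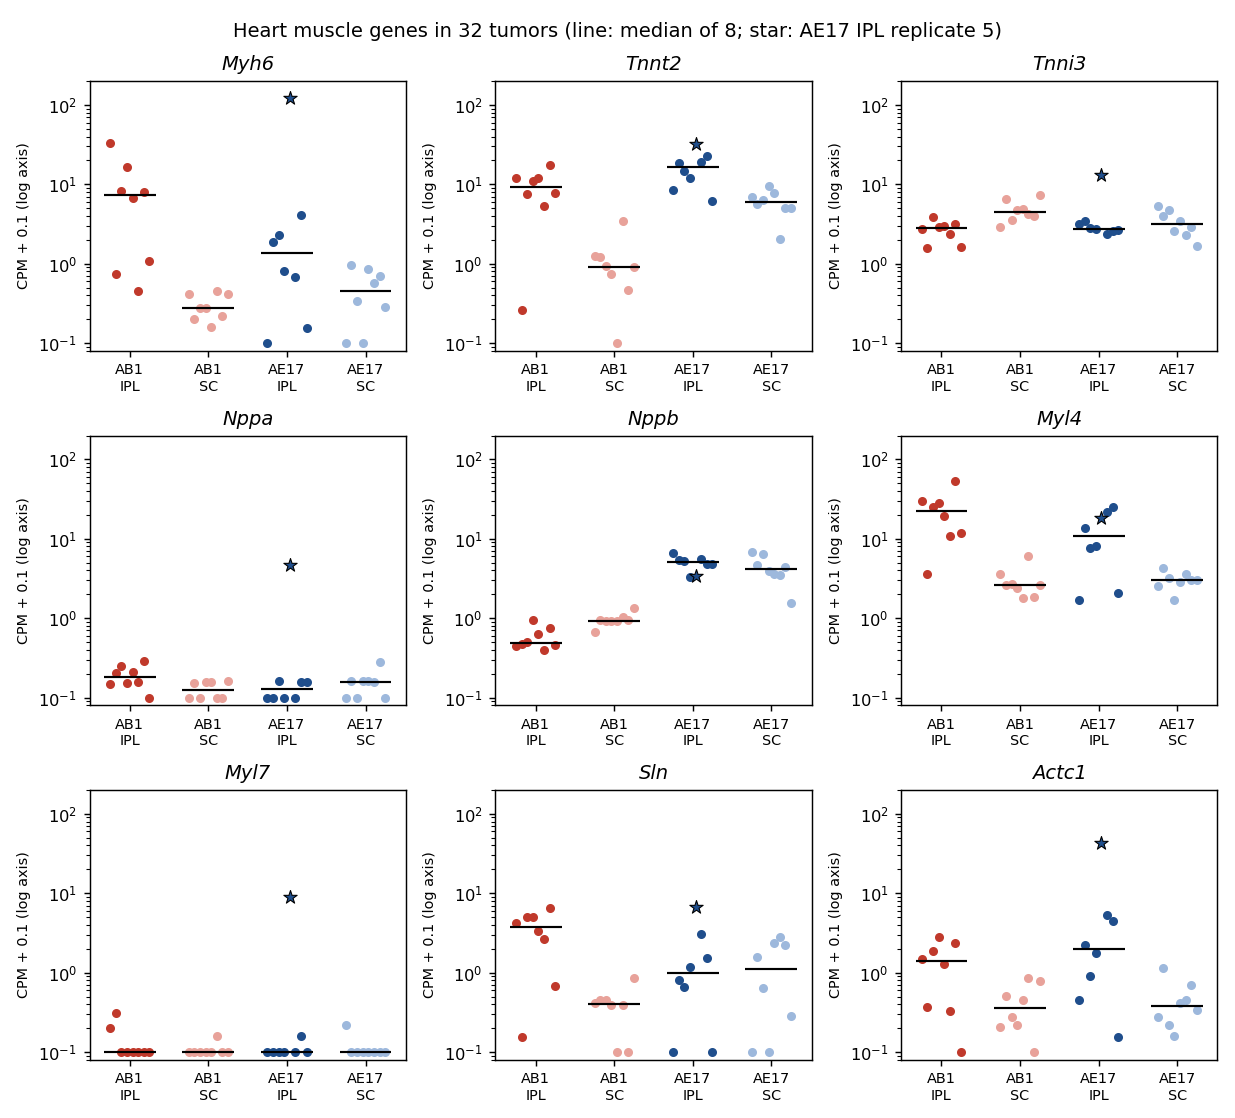
Level of 9 heart muscle genes in each tumor, as TMM-scaled CPM plus 0.1 on a log axis, for the 4 groups of 8 mice, with a line at the group median and a star for AE17 IPL replicate 5. In that tumor Myl7 stood at 8.81 CPM and Nppa at 4.53 CPM, while both were near 0 in the other tumors, and Nppb was higher in AE17 than in AB1 at both sites.

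Among the myosin light chains, Myl4 is the atrial and embryonic essential light chain (chromosome 11, 104550663 to 104595753). It stood at 3.45, 22.1 and 53.1 CPM (lowest, median, highest) in AB1 IPL and at 1.69, 2.52 and 5.94 CPM in AB1 SC tumors, and 7 of 8 IPL tumors lay above every SC tumor. The exception was AB1 IPL 2. Myl4 was 2.97 (log2, SE 0.43) higher in AB1 IPL tumors (edgeR adjusted p = 0.000159). In AE17 it was at 1.6, 10.7 and 25 CPM in IPL and 1.57, 2.94 and 4.21 CPM in SC tumors, with 6 of 8 IPL tumors above every SC tumor, and rose by 2.05 on the log2 scale (SE 0.47, edgeR adjusted p = 0.0231). The AE17 call was lost without AE17 IPL 7 (log2 fold change 1.81, adjusted p = 0.0511).

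Myl7, the atrial regulatory light chain (chromosome 11, 5896637 to 5898782), behaved differently from Myl4. It had 146 counts (8.81 CPM) in AE17 IPL 5 and 0 to 4 counts in each of the other 31 tumors, with a median of 0. Apart from AE17 IPL 5 the other counts lay at or about the floor, so Myl7 gave no comparison between sites. Myl2, the ventricular and slow muscle counterpart of Myl7, showed the reverse. It was at 0.0583, 6.58 and 22.5 CPM (lowest, median, highest) in AB1 IPL tumors, and AE17 IPL 5 had 8 counts of it (0.483 CPM). Myl7 thus made up 94.8% of Myl7 and Myl2 counts in AE17 IPL 5 (Wilson 95% interval 90.1% to 97.3%). In the 5 AB1 IPL tumors with at least 20 such counts its share was at most 0.438%, and in AE17 IPL 7 it was 1.3%.

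For the heavy chains AE17 IPL 5 again had the highest share. Myh7, the beta myosin heavy chain, is the partner of Myl2 in ventricle and slow muscle. Myh6 gave 31.9% to 50% of Myh6 and Myh7 counts in the 7 AB1 IPL tumors with at least 20 such counts (median 35.2%), and 21.3% to 28.5% in 5 of the 6 such AE17 IPL tumors. In AE17 IPL 5 the share was 82.6% (Wilson 95% interval 81.0% to 84.0%). The interval for AB1 IPL 2, with 24 counts, ran from 31.4% to 68.6%, and those of the 3 AE17 SC tumors with enough counts all contained 50%. The shared windows described above bear on these shares, since their reads could be counted for either gene or for none.

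**Figure D2:**
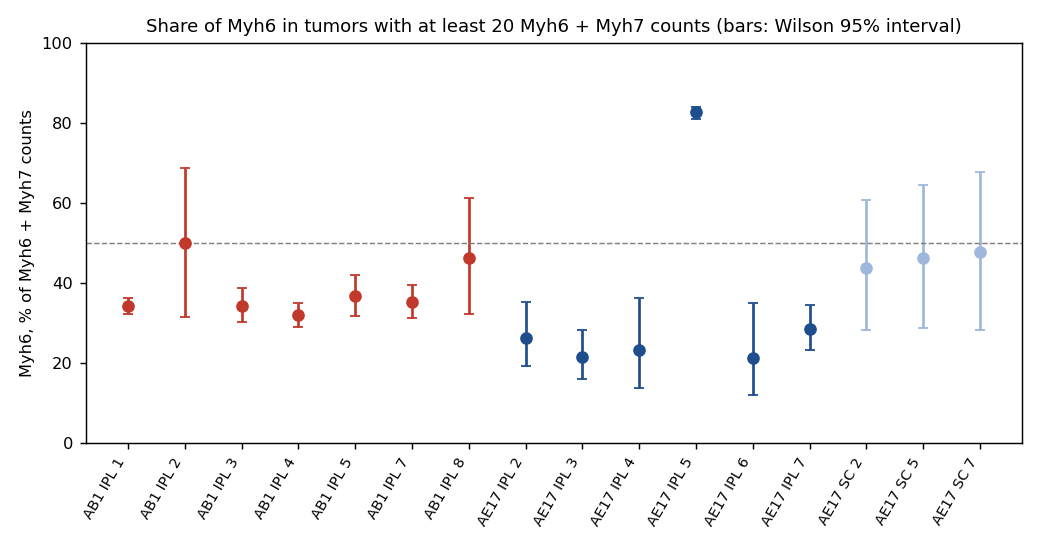
Myh6 as a percentage of Myh6 and Myh7 counts in the tumors with at least 20 such counts, with Wilson 95% intervals as bars and a dashed line at equal counts. AE17 IPL 5 stands at 82.6%, and the shares of the other IPL tumors lie between 21.3% and 50%.

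Actc1, the cardiac alpha-actin of the thin filament (chromosome 2, 114047282 to 114053548), was at 0, 1.29 and 2.73 CPM (lowest, median, highest) in AB1 IPL and 0, 0.263 and 0.758 CPM in AB1 SC tumors. AE17 IPL tumors had 0.0569, 1.9 and 43.0 CPM and AE17 SC tumors 0.0602, 0.279 and 1.04 CPM. In each model 5 of 8 IPL tumors lay above every SC tumor, and the rest overlapped. Actc1 did not pass the filter within either model. Without the filter its log2 fold change for IPL over SC was 1.92 in AB1 (edgeR adjusted p = 0.0973) and 4.29 in AE17 (edgeR adjusted p = 0.0708), where it was 2.5 without AE17 IPL 5 (edgeR adjusted p = 0.0851). The 43.0 CPM (712 counts) belonged to AE17 IPL 5. Acta1 encodes the skeletal alpha-actin, and Actc1 made up 12% of Actc1 and Acta1 counts in that tumor, against 1.99% in AE17 IPL 6 and 1.55% in AE17 IPL 7, the next of its own group, and at most 0.373% in AB1 IPL, 0.755% in AB1 SC and 0.351% in AE17 SC tumors.

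The troponins were called in opposite directions between the AB1 sites. Tnnt2, cardiac troponin T (chromosome 1, 135836354 to 135852260), was at 0.159, 9.2 and 17.6 CPM (lowest, median, highest) in AB1 IPL and 0, 0.822 and 3.32 CPM in AB1 SC tumors. All AB1 IPL tumors but AB1 IPL 2 exceeded every AB1 SC tumor, and the log2 fold change was 3.11 (SE 0.64, edgeR adjusted p = 0.00206). In AE17 it was at 6.15, 16.4 and 32 CPM in IPL and 1.92, 5.92 and 9.39 CPM in SC tumors, and was 1.49 higher on the log2 scale in IPL tumors (SE 0.32, edgeR adjusted p = 0.0195). This call remained without AE17 IPL 5 (log2 fold change 1.27, edgeR adjusted p = 0.0215) and was lost when all 32 tumors were fitted together (1.48, edgeR adjusted p = 0.0518). The difference between the 2 site effects of Tnnt2 was not called with all tumors (interaction 1.65, SE 0.71, edgeR adjusted p = 0.0981), and was called without AB1 IPL 2 (1.84, edgeR adjusted p = 0.0229) or without AB1 SC 6 (2.19, edgeR adjusted p = 0.0248).

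Tnni3, cardiac troponin I (chromosome 7, 4518305 to 4524229), was detected in every tumor, with at least 26 counts. AB1 IPL tumors had 1.49, 2.7 and 3.77 CPM (lowest, median, highest) and AB1 SC tumors 2.84, 4.39 and 7.32 CPM, and the groups overlapped. Tnni3 was lower in AB1 IPL tumors (log2 fold change -0.88, SE 0.22, edgeR adjusted p = 0.00739). AE17 IPL tumors had 2.3, 2.67 and 13 CPM and AE17 SC tumors 1.58, 3.07 and 5.24 CPM, with a log2 fold change of 0.3 (SE 0.37, edgeR adjusted p = 0.661) that became -0.27 without AE17 IPL 5. The 13 CPM (216 counts) belonged to that tumor, and the next AE17 IPL tumor had 3.32 CPM. The interaction of Tnni3 was -1.16 with all tumors (edgeR adjusted p = 0.0615) and -0.6 without AE17 IPL 5 (edgeR adjusted p = 0.179), and it was called without AB1 IPL 3, AE17 IPL 6, AE17 SC 1 or AE17 SC 3 (-1.25 to -1.29). Against their fast skeletal muscle partners, the troponin shares of AE17 IPL 5 lay within its group. Tnnt2 was 33.1% of Tnnt2 and Tnnt3 counts there, in a group range of 23.2% to 76.6%, and Tnni3 was 29.7% of Tnni3 and Tnni2 counts, in a range of 7.77% to 63.8%. The Tnni3 shares above it were those of AE17 IPL 1 and AE17 IPL 8, which had 29 and 27 Tnni2 counts. The next below it was 23.9% in AE17 IPL 3.

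Of the calcium-handling members, Sln encodes sarcolipin, an inhibitor of the calcium pump of the sarcoplasmic reticulum (chromosome 9, 53850164 to 53854560). It was at 0.0531, 3.65 and 6.42 CPM (lowest, median, highest) in AB1 IPL and 0, 0.303 and 0.757 CPM in AB1 SC tumors. In AB1, 6 of 8 IPL tumors lay above every SC tumor, and Sln was 3.48 higher on the log2 scale (SE 0.67, edgeR adjusted p = 0.00125). AE17 IPL tumors had 0, 0.892 and 6.52 CPM and AE17 SC tumors 0, 1.0 and 2.68 CPM, which overlapped, with a log2 fold change of 0.52 (SE 0.88, edgeR adjusted p = 0.753) that turned to -0.26 without AE17 IPL 5. The difference between the models was not called with all tumors (interaction 2.97, SE 1.18, edgeR adjusted p = 0.0734), and was called without AE17 IPL 5 (3.75, edgeR adjusted p = 0.0189), AB1 IPL 2 (3.16, edgeR adjusted p = 0.0437) or AE17 SC 1 (3.17, edgeR adjusted p = 0.0455).

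The last members are peptide hormones of the heart, which act on the kidney and vessels. Nppa, the precursor of atrial natriuretic peptide (chromosome 4, 148000722 to 148002079), had 75 counts (4.53 CPM) in AE17 IPL 5 and 0 to 4 counts in every other tumor. Nppb, the precursor of brain natriuretic peptide (chromosome 4, 147985788 to 147987205), lies next to it and was counted in all 32 tumors. It was at 0.292, 0.39 and 0.841 CPM (lowest, median, highest) in AB1 IPL, 0.578, 0.834 and 1.26 CPM in AB1 SC, 3.16, 4.98 and 6.59 CPM in AE17 IPL and 1.45, 4.07 and 6.69 CPM in AE17 SC tumors. Every AE17 tumor was above every AB1 tumor. Nppa was 57.7% of Nppa and Nppb counts in AE17 IPL 5, but at most 1.22% in the other AE17 IPL tumors and 4.0% in the AE17 SC tumors. AB1 tumors had few such counts, and their highest share was 27.3% of 11 counts in AB1 IPL 3.

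Although lane and model cannot be told apart, Nppb was the member with the clearest difference between models. In IPL tumors it was 3.31 lower in AB1 than in AE17 on the log2 scale (log2 fold change -3.31, SE 0.25, edgeR adjusted p = 5.04e-13), and in SC tumors 2.29 lower (log2 fold change -2.29, SE 0.24, edgeR adjusted p = 6.68e-10). Within AB1 it was lower in IPL than in SC tumors (log2 fold change -0.86, SE 0.22, edgeR adjusted p = 0.00913), and within AE17 the log2 fold change was 0.18 (SE 0.24, edgeR adjusted p = 0.684). The difference of these site effects was itself called (interaction -1.02, SE 0.34, edgeR adjusted p = 0.0303), and over fits that left out 1 mouse its adjusted p ran from 0.0119 to 0.0571, with the call lost without AB1 IPL 1 or AB1 SC 8.

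Of the 5 members tested in AB1, 3 were higher and 2 lower in IPL tumors, where 23% of 14645 tested genes were called, 12.3% higher and 10.7% lower. Without AB1 IPL 2 the AB1 fold changes of Tnnt2, Myl4 and Sln were 3.32, 3.16 and 3.69 on the log2 scale, and without AB1 IPL 4 they were 3.05, 2.9 and 3.35, and all 5 members stayed called each time. In AE17, 2 of 5 were higher and none was lower, against 5.73% of 14668 tested genes called (2.6% higher and 3.13% lower). The interaction was called for 1 of 7 members tested, and lower for it, with a background of 20.5% (11.9% higher and 8.62% lower). Between the models, 2 of 7 members were lower in AB1 IPL than in AE17 IPL tumors, Nppb and Actc1, and 2 of 7 in SC tumors, Nppb and Tnnt2, where 63.4% (31.6% higher and 31.8% lower) and 58.3% (28.6% and 29.7%) of 15681 tested genes were called. Actc1 rested on 1 tumor, since its log2 fold change of -2.53 (SE 0.8, edgeR adjusted p = 0.00693) was -0.75 without AE17 IPL 5 (edgeR adjusted p = 0.304). Myh6 turned from -0.81 to 2.80 in the same comparison without that tumor (edgeR adjusted p = 0.00214), and Sln from 1.02 (edgeR adjusted p = 0.239) to 1.79 (edgeR adjusted p = 0.0406). Myl4 there had a log2 fold change of 0.9 (edgeR adjusted p = 0.0716), and 1.06 without AB1 IPL 2 (edgeR adjusted p = 0.0239). Tnnt2 in SC tumors was 2.52 lower in AB1 (log2 fold change -2.52, SE 0.54, edgeR adjusted p = 0.000173).

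**Figure D3:**
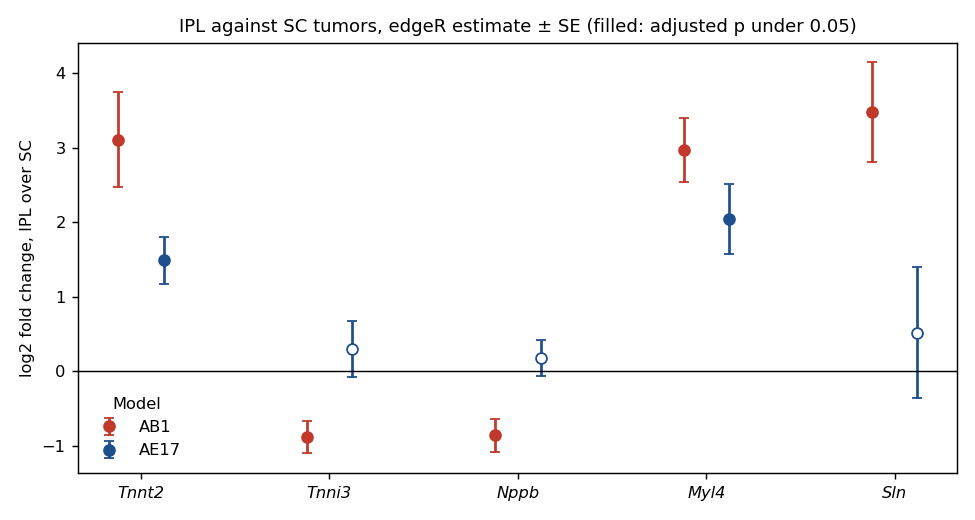
Log2 fold change of IPL over SC tumors, with SE, for the 5 members that passed the filter, in AB1 and in AE17, from edgeR fits of 8 against 8 mice, with filled points where the adjusted p was under 0.05. Tnnt2 and Myl4 are filled above 0 in both models, and Tnni3 and Nppb are filled below 0 in AB1 alone; the difference between models was called for Nppb and not for Tnni3 (adjusted p = 0.0615).

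With sequencing lane as a covariate none of these site calls remained. In AB1 Tnnt2 was at 2.98, Myl4 at 2.89, Sln at 3.29 and Tnni3 at -0.86, close to their values without lane, whereas Nppb moved from -0.86 to -0.6 (edgeR adjusted p = 0.414). In AE17 Tnnt2 was at 1.42 and Myl4 at 2.45. Within lane 3, where 2 AB1 SC tumors meet all 8 IPL tumors, the AB1 values were 2.94, 2.84, 3.24, -0.91 and -0.65 in the same order, and within lane 1 the AE17 values were 1.42 and 2.46, again with no call. A lane part in these differences cannot be told apart from site beyond these values. The AE17 IPL tumors of lane 1 do not include replicate 5.

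Levels between genes were compared per kilobase of exon, with the exons of all annotated transcripts of a gene merged. This length was 7752 bases for Tnnt2, 4637 for Myl4 and 590 for Myl7. The order of genes depends on it, since a merged length can exceed that of the transcripts present. In AE17 IPL 5 the order was Actc1 (26.6 CPM per kb), Myh6 (18), Myl7 (14.9), Tnni3 (6.32), Nppa (5.23), Sln (4.94), Nppb (4.25), Tnnt2 (4.13) and Myl4 (3.9). The medians of AB1 IPL tumors gave another order, led by Myl4 (4.76 CPM per kb), Sln (2.77), Tnni3 (1.31), Tnnt2 (1.19) and Myh6 (1.09), with Actc1 at 0.796, Nppb at 0.499, Nppa at 0.0952 and Myl7 at 0. Myl4 was first in this order and last in AE17 IPL 5, and Myl7 was last here and the third there. The medians of AE17 IPL tumors, the group of that tumor, were led by Nppb (6.38 CPM per kb), Myl4 (2.32) and Tnnt2 (2.12), with Myl7 at 0.

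AE17 IPL 5 was next compared with all other tumors over 56 listed heart genes that had rows. It had the highest CPM of all 32 tumors for 18 of them, and 8 had more than 3 counts in it and at most 10 in every other tumor. Since the members had singled this tumor out, the other 47 genes are given apart, of which 11 were highest in it and 6 met the second criterion. Over all 30148 genes with a count, 6.93% were highest in AE17 IPL 5 and 3.48% met the second criterion. The 8 were Nppa, Myl7, Kcnj3, Mybphl, Hand1, Hand2, Myocd and Corin. Kcnj3, a subunit of the acetylcholine-activated potassium channel of the atria, had 30 counts there and at most 1 elsewhere, and Mybphl, a myosin-binding protein H-like protein, had 27 and at most 2. Corin, the protease that activates the Nppa precursor, had 23 counts there and at most 7 elsewhere. The transcription factor Hand2 had 37 counts against at most 2. Within AE17 IPL tumors Gata4 (21.2 CPM) and Tbx20 (43.6 CPM) were lowest there, and Mef2c (50.0 CPM) and Tbx5 (0.905 CPM) highest. The heart transcription factor list summed to 273 CPM, within the 235 to 327 CPM of the other AE17 IPL tumors. Th, Dbh and Syt1, set beside Myl7 and Nppa below, had 314, 475 and 342 counts in AE17 IPL 5. Which cells gave the counts found almost only there was not tested.

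**Figure D4:**
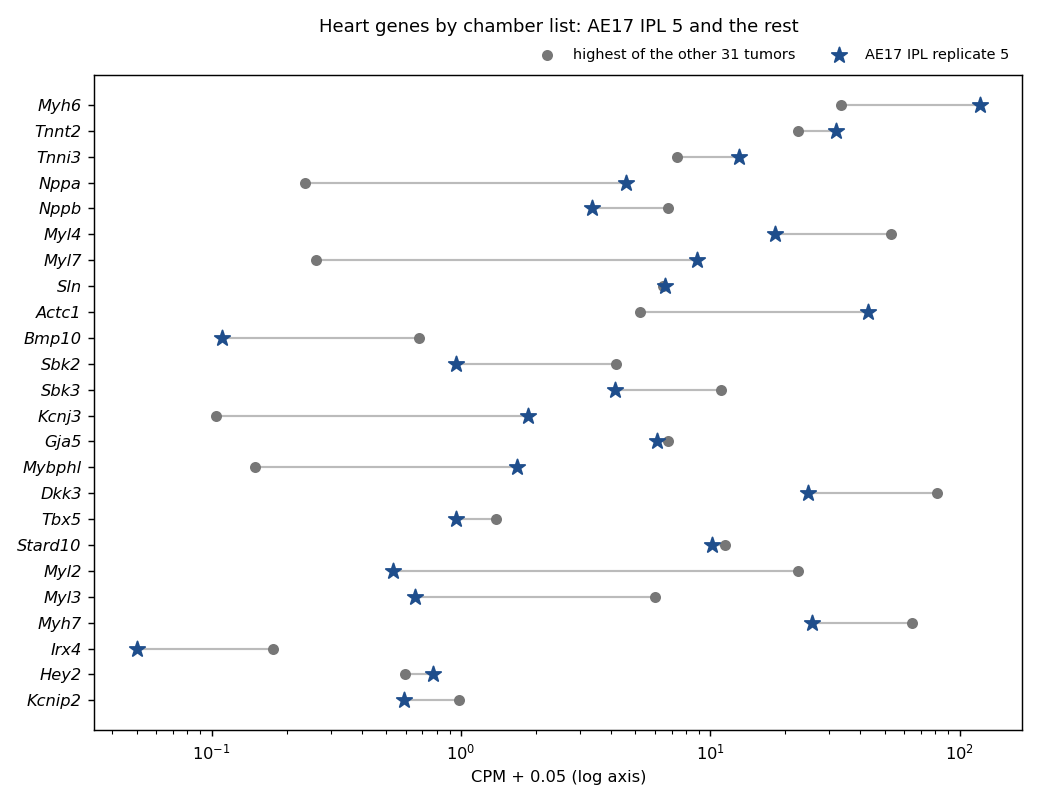
CPM plus 0.05 on a log axis for the members and for genes of the atrial and ventricular lists, with a star for AE17 IPL replicate 5 and a dot for the highest of the other 31 tumors. Myl7, Nppa, Kcnj3 and Mybphl lie far to the right in AE17 IPL 5, whereas for Myl2, Myl3 and Myh7 the dot, which is AB1 IPL 1 for all 3, lies to the right of the star.

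Not every atrial gene was high in that tumor. Of the atrial-enriched list only Kcnj3 and Mybphl were highest of all tumors. Gja5 had 101 counts against at most 133, and Dkk3 410 against at most 1527. The list summed to 50.7 CPM, above the 21.6 to 35.1 CPM of the other AE17 IPL tumors and below the highest of all other tumors at 90.5 CPM. Bmp10, an atrial growth factor, had 1 count in AE17 IPL 5, and Nkx2-5, a transcription factor of all heart muscle, also had 1. Of the ventricular genes, Irx4 had 0 counts there, Myl2 8 and Myl3 10, where other tumors reached 2, 455 and 121 counts, and Myh7 had 423 counts against at most 1297. Hey2, a transcription factor of the ventricle, was highest of all tumors there, with 12 counts (0.724 CPM) against at most 11 (0.544 CPM). The ventricle-enriched list summed to 27.9 CPM in AE17 IPL 5, above the 0.854 to 15.4 CPM of the other 7 AE17 IPL tumors and below the highest of all other tumors at 93.5 CPM, and 25.5 CPM of it was Myh7. Adipocyte genes summed to 988 CPM there, to 18.8 to 68.4 CPM in the other AE17 IPL tumors and to at most 330.0 CPM in any other tumor. The adult skeletal muscle list summed to 1040 CPM against 62.2 to 791 CPM in its group and up to 5990 CPM elsewhere. Erythroid genes (704 CPM against 73.7 to 692 CPM) were barely above their group, and the mesothelial list (7.9 CPM against 1.72 to 21.5 CPM) lay within it. The part of these cell types in the heart gene values was not tested.

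The atrial-enriched list, apart from the members, had 10 genes with rows. In AB1 2 of 4 tested were higher in IPL tumors and in AE17 2 of 4, with medians of 0.55 and 0.52 against 0 over all genes tested. For this and the lists that follow, 12.3% of all tested genes were higher and 10.7% lower in AB1, and 2.6% and 3.13% in AE17. Lane was not part of these fits. Stard10, a lipid transfer protein, was 1.9 higher in AB1 IPL tumors (SE 0.31, edgeR adjusted p = 0.000374) and 0.65 in AE17 (SE 0.18, edgeR adjusted p = 0.0464). The ventricle-enriched list had 1 tested gene, Myh7, which was higher in IPL tumors in both models, by 6.15 in AB1 (SE 1.03, edgeR adjusted p = 0.000534) and by 3.75 in AE17 (SE 0.9, edgeR adjusted p = 0.0271). Myl2 was above every SC tumor in 7 of 8 AB1 IPL and 6 of 8 AE17 IPL tumors.

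Among the other sarcomere and Z-disc genes of the heart, 5 of 8 tested were higher in AB1 IPL tumors and 1 of 9 in AE17, with medians of 1.95 and 0.15. Ttn, the giant elastic protein of striated muscle, was 2.73 higher in AB1 (SE 0.76, edgeR adjusted p = 0.0157), and in AE17 its log2 fold change was -0.31 and not called. Calcium and channel genes gave 2 of 5 higher in AB1 and 2 of 6 in AE17. Hrc, a calcium-binding protein of the sarcoplasmic reticulum, was 3.16 higher in AB1 (SE 0.66, edgeR adjusted p = 0.00224). Atp2a2, the calcium pump that sarcolipin inhibits and that most cells express, had log2 fold changes of 0.01 and -0.02 and no call.

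For the natriuretic peptide system beyond the members, 4 of 5 tested were higher in AB1 IPL tumors and none of 5 in AE17. Over all tested genes 12.3% and 2.6% were higher. Npr1, the receptor of both peptides, was 0.52 higher in AB1 (SE 0.12, edgeR adjusted p = 0.00533), and Npr2, the receptor of C-type natriuretic peptide, also 0.52 (SE 0.1, edgeR adjusted p = 0.000838). Mme, the protease neprilysin that degrades them, was 2.74 higher (SE 0.53, edgeR adjusted p = 0.00127). Of the heart transcription factors, 2 of 4 were higher in AB1, and in AE17 1 of 5 was higher and 1 lower. Gata4 was higher in both models, by 0.8 in AB1 (SE 0.14, edgeR adjusted p = 0.000597) and 0.75 in AE17 (SE 0.18, edgeR adjusted p = 0.0269).

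Markers of other tissues moved with the sites as well. Adult skeletal muscle genes were higher in AB1 IPL tumors for 16 of 17, with a median of 3.19, and in AE17 for 1 of 17, with a median of -0.6. They summed to 131, 2970 and 5990 CPM (lowest, median, highest) in AB1 IPL, 59.5, 364 and 588 CPM in AB1 SC, 62.2, 671 and 1040 CPM in AE17 IPL and 49.1, 734 and 1660 CPM in AE17 SC tumors. Genes of regenerating skeletal muscle were higher for 4 of 4 in AB1 and 1 of 4 in AE17, where the 1 was Myog (3.19, SE 0.91, edgeR adjusted p = 0.0492).

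Of 6 adipocyte genes with rows 4 were tested in each model, with 2 higher in AB1 and none in AE17. Erythroid genes were higher for 4 of 4 in AB1 and 1 of 5 in AE17. Smooth muscle gave 2 of 3 and 1 of 3 higher. Lung epithelium gave 1 of 2 lower in AB1 and none of 3 called in AE17, with sums of 10.6 to 30.9 CPM in AB1 IPL and 21.2 to 29.5 CPM in AE17 IPL tumors. Of the mesothelial genes 1 was tested in each model and none was called. Their part in the heart gene differences was not tested.

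Last, members were set beside all genes of at least 1 mean CPM over the 16 IPL tumors, as Pearson's r of log2 CPM centred within each model. This is a description over 14041 genes from shared libraries. Myh6 was most like Myh7 (r = 0.932, and 0.992 without AE17 IPL 5), to which the shared windows contribute by an unknown amount, followed by Ache (r = 0.916) and Popdc2 (r = 0.912). Without that tumor its next partners were Myl2 (r = 0.949) and Myoz2, a Z-disc protein (r = 0.94). Myl4 was most like the skeletal muscle genes Smpx (r = 0.965) and Mylpf (r = 0.959), and without AE17 IPL 5 like Chrng (r = 0.971) and Chrnd (r = 0.965), subunits of the acetylcholine receptor of muscle. Tnnt2 was most like Bves (r = 0.951) and Popdc3 (r = 0.92), both Popeye domain proteins, and Murc (r = 0.894), and r was 0.948, 0.932 and 0.95 without AE17 IPL 5. Its r with Tnni3 was 0.48, and 0.57 without that tumor. Sln went with Mapt (r = 0.956), Art1 (r = 0.956) and Sypl2 (r = 0.954), with r of 0.947, 0.972 and 0.958 without AE17 IPL 5.

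Myl7 and Nppa shared their 3 closest genes, Th, Dbh and Syt1. Th and Dbh encode tyrosine hydroxylase and dopamine beta-hydroxylase, enzymes of noradrenaline synthesis in sympathetic neurons, and Syt1 a synaptic vesicle protein. For Myl7 the values were 0.962, 0.955 and 0.951, and for Nppa 0.958, 0.948 and 0.938. They rested on AE17 IPL 5, where Th had 314 counts, Dbh 475 and Syt1 342, against at most 3, 2 and 16 in the other 31 tumors. Without that tumor r for Th fell to 0.525 with Myl7 and to -0.043 with Nppa. Tnni3 was most like Acsl1 (r = 0.887) and Acacb (r = 0.872), enzymes of fatty acid metabolism, and the third was Dbh (r = 0.862). Without AE17 IPL 5, where the adipocyte list was also high, these fell to 0.539, 0.61 and 0.257. Actc1 was most like Gpx3 (r = 0.954), an extracellular peroxidase, with an r of 0.945 when that tumor was left out. Nppb was most like Arhgef2 (r = 0.819, and 0.822 without AE17 IPL 5), and its r with the other members lay between -0.42 and 0.19, and between -0.3 and 0.4 without that tumor.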

How the data were processed

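RNA of 32 whole tumors was sequenced as 50-base single-end reads. Per the labels, bcl2fastq 1.8.4 and HISAT2 2.0.4 were used, and the study's methods name SummerizeOverlaps for counting. The authors deposited raw counts of reads per gene, without normalization. The genome build is named mm11, which is not a standard name, and the strand and multimapping settings are not given in the sources used here. Coordinates are from GENCODE M21 on GRCm38, which holds 39495 of the 39676 identifiers without version. CPM used TMM factors over all tumors, and log2 CPM a prior count of 2.

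Sites were compared within each model, and the models and the interaction in 1 fit of 32 tumors, in R 4.3.3 with edgeR 4.0.16 (filterByExpr, TMM, robust quasi-likelihood F test, two-sided), with Benjamini-Hochberg adjustment over all genes tested and a threshold of 0.05. An SE is the fold change divided by the root of F. DESeq2 1.42.0, the tool of the authors, other normalization, no filter, lane, a block and leaving out each mouse were alternatives. The tests were checked on simulated data. Wilson intervals have a 95% level and cover the counting error within 1 tumor, not the spread between mice. Members and lists were chosen with earlier results of these data known. Besides the 10 members, at most 4 genes of a list were named, those highest in mean CPM over all tumors, and the 3 genes most like each member. Acta1, Myl2, Myl3 and genes named for AE17 IPL 5 or for a share with a member were singled out after their values were seen. Promoter windows are from RefSeq, and Sln has no entry there. Other listed genes not analysed here are Ankrd1, Ldb3, Pln, Gja1, Gata6, Npr3, Myf5, Sftpc, Sftpd, Lamp3, Cidea, Myh11, Acta2, Msln and Upk1b, and the values of 1 further listed gene and 1 gene most like a member are not reported here. The smallest chi-square per degree of freedom among 112 pairs of libraries within groups was 5.92, so no library was a copy of another. Whether mice of a group shared a cage or litter is not stated, and p values measure the spread between mice.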

Additional observations from a re-analysis of the deposited data

Results flagged for a closer look

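Within each group of 8 tumors, the gap between the most extreme value and its neighbor was compared with the range of the group by Dixon's criterion (0.526 for 8). Over 36 groups of a member, 13 had such a value. Chance flags about 1 in 20 groups of independent normal values, a rate that does not apply to groups of near-zero counts or to several genes of 1 tumor. AE17 IPL 5 accounted for 6 of them, with Myh6 at 121 CPM (next highest of its group 3.96), Tnni3 at 13 (3.32), Nppa at 4.53 (0.0618), Myl7 at 8.81 (0.0575), Sln at 6.52 (3.0) and Actc1 at 43.0 CPM (5.18). AB1 SC 6 accounted for 3, with Tnnt2 at 3.32 CPM (1.16), Myl4 at 5.94 (3.52) and Myl7 at 0.0583, which is 1 count. The rest were Myl7 in AB1 IPL 2 at 0.213 CPM (4 counts), Myl7 in AE17 SC 1 at 0.116 (2 counts), Nppa in AE17 SC 7 at 0.178 (3 counts) and Sln in AB1 SC 8 at 0.757 CPM (12 counts).

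The site effect of Nppb differed between the models in the interaction test of edgeR, with a log2 difference of -1.02 (SE 0.34, adjusted p = 0.0303). Nppb was lower in AB1 IPL than in AB1 SC tumors and was not called in AE17.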

How the results depend on the processing

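Normalization by DESeq2's size factors, DESeq2 itself and the fit without a filter kept every member called between sites in its direction and past the threshold. In AB1 DESeq2 called 7 of 8 members (4536 of 20627 genes) and no filter 6 of 9 (3805 of 28091), against 5 of 5 in the main fit (3374 of 14645). With lane as a covariate 0 members were called in AB1 and 0 in AE17 (386 genes and 1 gene in all), and within 1 lane 0 and 0 (169 and 14 genes). These fits have 2 AB1 SC or 3 AE17 IPL tumors in the shared lane, and the cause was not tested. At most 1 of the AE17 site calls given above for listed genes could thus remain with lane as a covariate. For all AE17 genes, DESeq2 called 1768, no filter 550 and the fit of all 32 tumors 1324, against 840. With no filter and AE17 IPL 5 left out together, a setting chosen after seeing the data, 1 member was called in AE17, Myl4 was at 1.94 (adjusted p = 0.0641), Tnni3 at -0.28 and Sln at -0.26. For the interaction, DESeq2 called 2 members, adding Tnni3 (-1.15, adjusted p = 0.0482), and no filter 0 (Nppb at -1, adjusted p = 0.0526). For AB1 against AE17 in IPL tumors, no filter called 4 of 9 members. The main fit called 2 of 7, where 63.4% of all tested genes were called.

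The replicate number as a block called 4 members in AB1 (Tnni3 lost, adjusted p = 0.0622), 1 in AE17 (Myl4 lost, 1.67, adjusted p = 0.0648) and 1 between models in IPL tumors, where Actc1 was lost (-1.21). Same-numbered IPL and SC tumors came from different mice, and their residuals had r from -0.32 to 0.01 in AB1 and from -0.26 to 0.29 in AE17, with 0 and 2 of 8 best with their own number, so the numbers were not taken as pairs.

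Leaving out 1 mouse gave 5 to 7 members in AB1 (2877 to 3652 genes), 1 to 4 in AE17 (316 to 2066), 0 to 3 for the interaction (2722 to 3664), 2 to 4 between models in IPL (9686 to 10118) and 2 to 3 in SC tumors (8862 to 9649). In AE17, 4 members were called without AE17 IPL 1, AE17 IPL 8 or AE17 SC 1, and 1 without AE17 IPL 7. AE17 genes in all came to 1263, 2066 and 1546 without AE17 IPL 5, AE17 SC 1 and AE17 SC 3, and to 316 to 509 without AE17 IPL 2, 3, 4, 7 or 8 or AE17 SC 2, 5, 6 or 7. The interaction had 0 members without AB1 IPL 1 or AB1 SC 8, 2 without AB1 IPL 3, AB1 SC 6, AE17 IPL 6 or AE17 SC 3, and 3 without AB1 IPL 2, AE17 IPL 5 or AE17 SC 1. Between models in IPL tumors, 4 were called without AE17 IPL 6.

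Signs turned for values that were not called over all mice. Tnni3 in AE17 was -0.42 with lane and within 1 lane, and -0.27 to 0.42 when 1 mouse was left out. Sln in AE17 ran from -0.26 to 0.82, the Myh6 interaction from -0.55 to 3.71, Myh6 between models in IPL tumors from -1.45 to 2.80, Myl4 between models in SC tumors from -0.28 to 0.05 and Actc1 there from -0.45 to 0.28. The lowest Tnni3 and Sln values and the highest Myh6 values were those without AE17 IPL 5, and Myh6 was then called (adjusted p = 0.00214 between models and 0.0367 for the interaction). The block put Myh6 between models in IPL tumors at 1.28. Depth limits Myl7 and Nppa, which lay near the floor in all tumors but AE17 IPL 5.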
